A study of Mus musculus with 13 samples.

Results

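The genes described here are 40 mouse genes of the cell division cycle: the machinery that copies DNA, the cyclins and transcription factors that control entry into S phase, and the proteins that build the spindle and divide the chromosomes. They were read from Affymetrix mouse exon arrays, on which probes across the exons of a gene are summarised into 1 log2 value per transcript cluster. A gene was taken as measured where a cluster of the 23332 in the table carried its symbol and no other, and where several did, the brightest on average was taken. This gave 36 of the 40 genes. Pcna, Rrm2 and Ccnb1 had no such cluster, and Foxm1 was annotated only together with another gene, so these 4 have no value here. Plk1 alone had 2 such clusters. A level cannot be compared between genes, because each cluster has its own probes, whereas 1 log2 unit between arrays is a 2-fold difference for any gene.

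The series follows mouse embryonic fibroblasts (MEFs) on their way to induced pluripotent stem (iPS) cells, in secondary fibroblasts in which Dox (doxycycline), here at 1.5 µg/ml, drives an inducible promoter. The 13 arrays hold total RNA, 1 array per condition, from cells grown in mouse ES medium. The 3 untreated arrays are parental MEFs, and secondary MEFs of line 6C and line 1B at day 0 without Dox. The 7 arrays on Dox are 6C at days 2, 5, 8, 11, 16 and 21 and 1B at day 5. The 2 iPS arrays are Dox-independent 6C-secondary iPS cells, labelled day 30, and 6C-primary iPS cells, and both have Dox as their agent label. The last array is 1B given 5 days of Dox and then 5 days without it. The series' design text calls the 6C samples clones, and the factors placed under the promoter are not given in the sources used here. No condition of a line has a second culture, so the p-values below rest on the spread between arrays of different lines or days. The name of the 6C day 0 array gives day 2, no Dox, and that of the 6C day 8 array gives day 9, where the sample labels were followed.

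Dividing cells load the Mcm helicase onto DNA in G1, fire it in S phase and pull the copied chromosomes apart in mitosis. D-type cyclins respond to growth signals and cyclin E completes the switch into S phase, where E2F transcription factors turn on replication genes. Later in the cycle, Mybl2 (B-Myb) and Foxm1, bound to the MuvB complex at CHR elements, turn on mitotic genes. Mouse pluripotent cells are known for a short G1 and a large share of cells in S phase, whereas fibroblasts in culture divide more slowly and can leave the cycle. In bulk RNA, fewer dividing cells and less RNA per dividing cell cannot be told apart.

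The medians of fibroblast and pluripotency markers separated the untreated from the iPS arrays. The median log2 level of 7 measured fibroblast markers of 8 was 11.5 to 13.3 in the untreated arrays and 7.64 to 10.8 in iPS cells. That of 8 pluripotency markers was 4.67 to 5.67 and 11.9 to 12.2. On Dox the fibroblast median ran from 7.53 to 12.96 and the pluripotency median from 4.85 to 9.62. The fibroblast median of the secondary iPS array, 10.8, lay above those of 6C day 16 (10.2), 6C day 21 (10.1) and 1B day 5 (7.53). Array medians over all clusters ran from 6.34 (6C day 0) to 6.67 (6C day 5).

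Most of the 36 genes were low in untreated fibroblasts, higher on Dox and higher again in iPS cells, with their lowest level in the withdrawn 1B array. The median difference from the mean of the untreated arrays was 1.25 at 6C day 2, 1.70 at 6C day 16, 1.67 at 1B day 5, 2.06 and 2.01 in the secondary and primary iPS arrays, and -1.17 after withdrawal. The same median over all clusters stayed between -0.14 and 0.08 in each of the 13 arrays. Not all genes followed this order. By group means, Ccnd1 and Ccnd2 were lower in iPS cells than on Dox, and Ccne2 and Mki67 were not higher. The withdrawn array was not the lowest for Mcm7, Tyms, the D-type cyclins and E2f1.

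**Figure D1:**
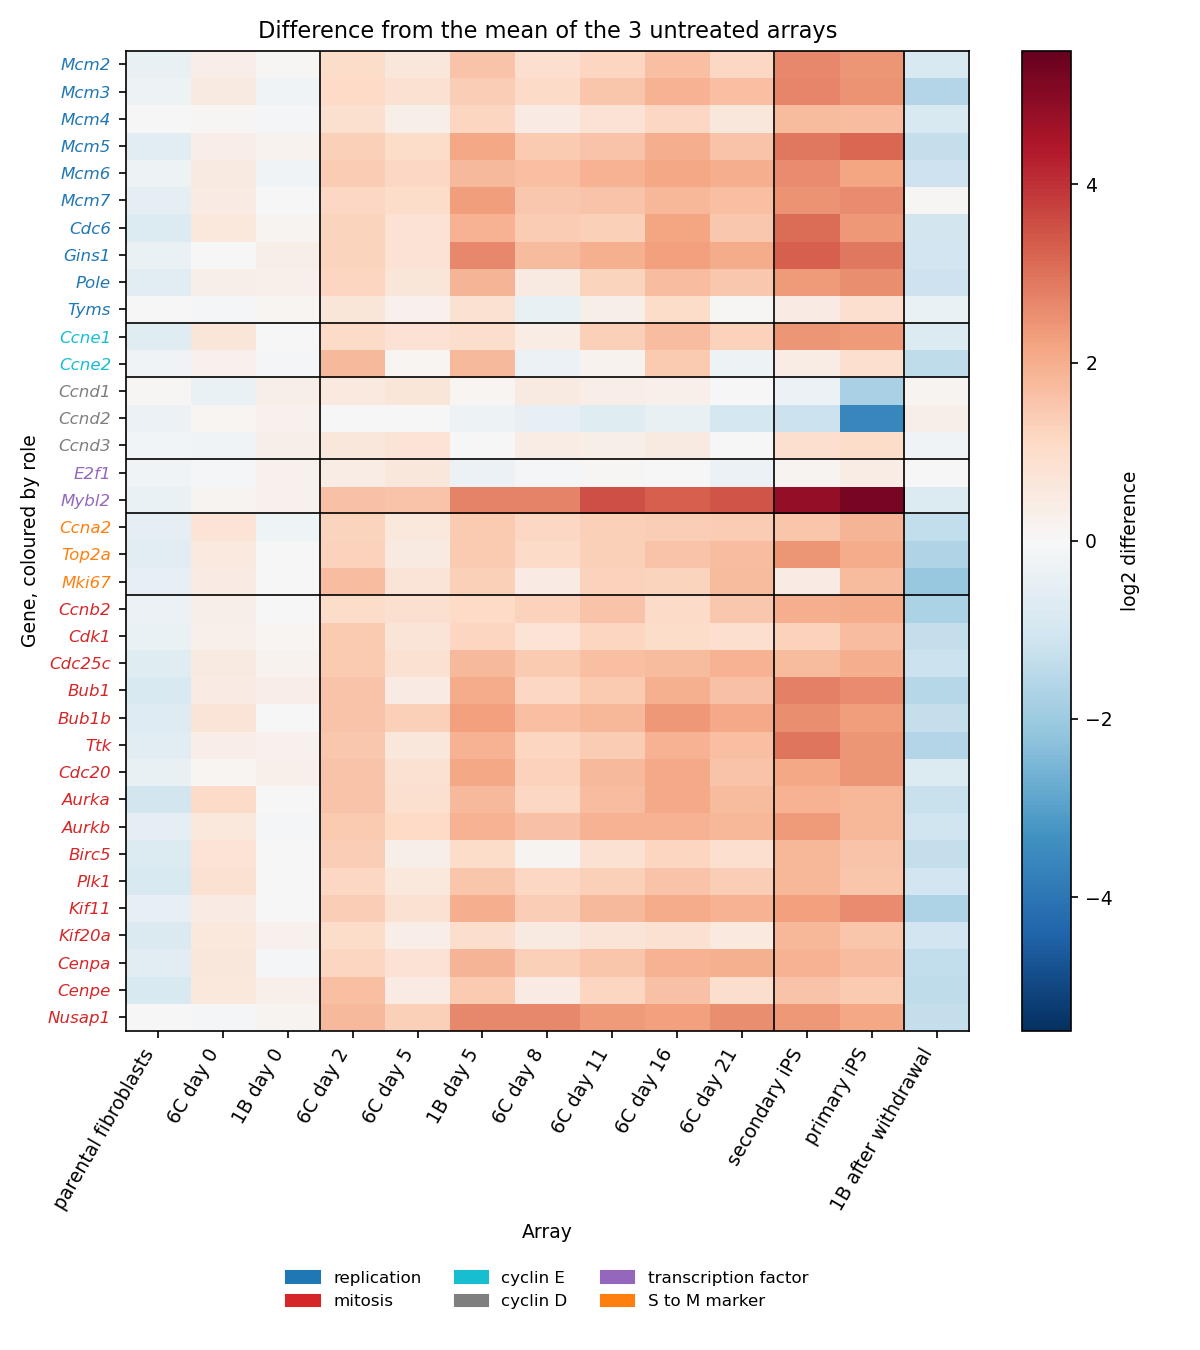
Log2 difference of each of the 36 genes (rows, coloured by role) from the mean of the 3 untreated arrays, in each of the 13 arrays (columns). The replication and mitosis genes are mostly red in the 7 arrays on Dox and in both iPS arrays and mostly blue in the withdrawn 1B array, Mybl2 has the widest range, and Ccnd1 and Ccnd2 are blue in primary iPS cells.

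In iPS cells against untreated fibroblasts, 23 of the 36 genes were higher and 0 lower at a limma adjusted p under 0.05 (Benjamini-Hochberg over all clusters) and a fold of at least 2. Of all clusters, 5.44% were called higher and 3.32% lower. The calls comprised 9 of 10 replication genes, 11 of 16 mitosis genes, Ccne1, Mybl2 and Top2a. The median difference was 2.05 over the 36 genes and -0.02 over all clusters. Both iPS arrays lay above all 3 untreated arrays for 32 of the 36, against 22.2% of all clusters. Calls at this size depended on single arrays: 1 gene was called higher without the primary iPS array, 4 without the secondary one, 2 without 1B day 0, 12 without 6C day 0 and 9 without the parental array. Without the secondary iPS array 1 gene, Ccnd2, was also called lower. The names of the arrays fall into 4 groups by their prefix, called runs here. In run 2, which holds the parental array, 6C at days 2, 5, 11 and 16 and primary iPS cells, the last lay above parental fibroblasts for 34 of 36 genes (48.6% of all clusters), with a median difference of 2.42.

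In the Dox-treated arrays against the same untreated arrays, 20 of the 36 genes were higher and 0 lower by the same limma rule, where 2.31% of all clusters were called higher and 0.159% lower. These were 7 of 10 replication genes, 10 of 16 mitosis genes, Mybl2, Ccna2 and Top2a. The median difference was 1.25, against 0.00 over all clusters. For 20 genes, all 7 Dox arrays lay above all 3 untreated arrays, against 6.82% of clusters. After quantile normalization 7 of the 36 were called, and 9 with each array centred on its median. With run as a fixed block 1 gene, Nusap1, kept its call (adjusted p = 0.048, with 0.0024 to 0.048 over its alternatives). Within runs, 6C day 21 lay above 6C day 0 for 32 of 36 genes (run 1, median 1.14), the mean of the Dox arrays above the parental array for 36 of 36 (run 2, median 1.87) and 1B day 5 above 1B day 0 for 32 of 36 (run 3, median 1.61). Of all clusters, 51.6%, 51.3% and 48.8% were higher in these comparisons. In run 2 the Dox arrays are of line 6C and the untreated array is parental, so Dox and line cannot be told apart. Untreated 6C cells, of run 1, lay above parental cells for 32 of 36 genes (9061 of 23332 clusters), with a median of 0.90. Without the parental array or without 1B day 0, 1 gene was called. Without 6C day 0, day 11, day 16, day 21 or 1B day 5, the count was 7, 7, 8, 8 and 12, and without day 8 it was 13.

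E2F words were found close to the starts of 5 of 9 replication genes, and CHR words close to those of 10 of 14 mitosis genes. In the RefSeq table of promoter windows (GRCm38.p6, 250 bases before to 50 after each start), 29 of the 40 genes had a window. The E2F words TTTCCCGC, TTTCGCGC, TTTGCCGC and TTTGGCGC, on either strand, were found in 5 of 9 replication genes (Cdc6, Mcm3, Mcm5, Mcm6 and Mcm7) and in 1 of 14 mitosis genes (Cdk1), against 2.26% of all 32851 windows. The CHR words TTTGAA and TTCGAA were found in 10 of 14 mitosis genes, in Mki67 and Top2a and in 2 of 9 replication genes, against 19.2% of windows. CCAAT, the word of the factor NF-Y, was found in 7 of 9 and 12 of 14, against 37.4%. A match describes the letters only, and a gene with several windows counts as matched if any holds the word.

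Shown first are the 200 bases before the start of 3 replication genes, with the E2F words in capitals: Mcm6 (chr1:128359706-128359905, minus strand), Mcm5 (chr8:75109309-75109508, plus strand) and Cdc6 (chr11:98907951-98908150, plus strand). All are written 5′ to 3′ on the gene's strand, and neighbouring words overlap in Mcm6 and Mcm5.
Mcm6: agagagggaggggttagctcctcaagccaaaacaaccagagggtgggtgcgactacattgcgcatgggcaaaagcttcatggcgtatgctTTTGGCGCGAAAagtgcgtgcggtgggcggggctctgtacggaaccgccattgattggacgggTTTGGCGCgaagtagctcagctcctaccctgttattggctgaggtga
Mcm5: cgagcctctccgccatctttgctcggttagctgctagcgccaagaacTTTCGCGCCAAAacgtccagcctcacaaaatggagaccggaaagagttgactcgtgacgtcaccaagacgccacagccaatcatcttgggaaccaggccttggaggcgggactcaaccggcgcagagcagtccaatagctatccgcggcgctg
Cdc6: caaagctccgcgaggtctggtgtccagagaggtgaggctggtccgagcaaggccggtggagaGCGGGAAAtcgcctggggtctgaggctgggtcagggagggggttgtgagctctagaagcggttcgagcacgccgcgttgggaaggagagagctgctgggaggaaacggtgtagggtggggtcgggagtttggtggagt

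The same stretch of 3 mitosis genes follows, with the CHR words in capitals: Cdk1 (chr10:69352913-69353112, minus strand), Kif11 (chr19:37376182-37376381, plus strand) and Cdc20 (chr4:118437344-118437543, minus strand). Each holds a CHR word within 20 bases of the start, with a CCAAT word, read on one strand or the other, upstream of it. In Kif11 the word reads TTCAAA, the reverse complement of TTTGAA.
Cdk1: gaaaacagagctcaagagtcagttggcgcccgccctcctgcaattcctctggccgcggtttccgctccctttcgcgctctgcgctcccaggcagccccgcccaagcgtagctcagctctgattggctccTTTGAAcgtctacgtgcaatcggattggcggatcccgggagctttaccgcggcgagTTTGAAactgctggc
Kif11: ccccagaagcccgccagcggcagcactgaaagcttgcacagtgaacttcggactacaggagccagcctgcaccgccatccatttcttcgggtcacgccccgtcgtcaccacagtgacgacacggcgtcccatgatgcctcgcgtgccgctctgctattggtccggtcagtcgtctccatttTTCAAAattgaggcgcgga
Cdc20: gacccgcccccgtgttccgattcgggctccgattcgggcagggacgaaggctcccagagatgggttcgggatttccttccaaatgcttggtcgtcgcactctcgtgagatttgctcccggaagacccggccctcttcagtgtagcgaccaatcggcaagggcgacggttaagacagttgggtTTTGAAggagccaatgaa

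Below, the untreated levels are given as parental, 6C day 0 and 1B day 0, and the iPS levels as secondary and primary. All are log2 values. Gins1, a subunit of the GINS complex that joins the Mcm helicase at active forks, stood at 6.06, 6.44 and 6.75 in the untreated arrays, between 7.22 and 9.07 on Dox (median 8.36), at 9.70 and 9.31 in iPS cells and at 5.35 after withdrawal. The untreated, Dox and iPS groups did not overlap. Gins1 was higher in iPS cells by 3.09 (SE 0.31, limma adjusted p = 0.0089) and on Dox by 1.81 (SE 0.36, adjusted p = 0.033). Mcm5, a helicase subunit with overlapping E2F words in the sequence above, stood at 8.26, 9.21 and 9.01 untreated, 9.83 to 10.94 on Dox (median 10.40), 11.73 and 12.00 in iPS cells and 7.51 after withdrawal. It was higher by 3.04 (SE 0.36, adjusted p = 0.013) in iPS cells and by 1.58 (SE 0.28, adjusted p = 0.021) on Dox, again with no overlap. Cdc6, the ATPase that loads the helicase at origins, stood at 6.49, 7.84 and 7.40 untreated, 8.04 to 9.41 on Dox (median 8.63), 10.33 and 9.62 in iPS cells and 6.22 after withdrawal. Its differences were 2.73 (SE 0.47, adjusted p = 0.030) and 1.46 (SE 0.33, adjusted p = 0.049).

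Among the other helicase subunits, Mcm6 had the largest Dox difference, 1.72 (SE 0.25, adjusted p = 0.012). Mcm6 stood at 9.38, 10.15 and 9.45 untreated, 10.82 to 11.80 on Dox (median 11.43), 12.26 and 11.82 in iPS cells and 8.50 after withdrawal, so that primary iPS cells lay only just above the highest Dox array. Mcm7 stood at 8.94, 9.87 and 9.45 untreated, 10.44 to 11.71 on Dox (median 10.98), 11.88 and 12.02 in iPS cells and 9.48 after withdrawal. Mcm7 was the one replication gene whose withdrawn level equalled its day 0 level in 1B to within 0.03. Mcm3 stood at 9.47, 10.27 and 9.56 untreated, 10.61 to 11.67 on Dox (median 11.11), 12.47 and 12.25 in iPS cells and 8.17 after withdrawal. Mcm2 was higher by 2.54 in iPS cells and by 1.15 on Dox. Mcm4, at a mean of 9.61 in untreated cells (SD 0.05, n = 3), was higher by 1.72 (SE 0.23, adjusted p = 0.018) in iPS cells, and its Dox difference of 0.77 missed the threshold (adjusted p = 0.080). Pole, the catalytic subunit of DNA polymerase epsilon, was higher by 2.45 in iPS cells and missed the threshold on Dox (1.23, adjusted p = 0.074). Tyms, the enzyme that makes thymidylate, was the one measured replication gene called in neither comparison. Its level ran from 7.39 (6C day 8) to 8.83 (6C day 16), and its differences of 0.69 and 0.39 had adjusted p = 0.17 and 0.49.

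The cyclins that act before S phase did not move as one family. Ccne1 (cyclin E1) stood at 8.39, 9.72 and 9.05 untreated, 9.47 to 10.74 on Dox (median 10.12), 11.50 and 11.42 in iPS cells and 8.31 after withdrawal. The Dox and untreated ranges overlapped, while both iPS arrays lay above all others, and Ccne1 was higher in iPS cells than in untreated cells by 2.40 (SE 0.42, adjusted p = 0.031). Ccne2 (cyclin E2) stood at 7.51, 7.92 and 7.62 untreated and 8.09 and 8.60 in iPS cells (difference 0.66, adjusted p = 0.21). On Dox, Ccne2 spread from 7.35 at 6C day 8 to 9.47 at 6C day 2 (median 7.86), with 9.45 at 1B day 5 and 9.13 at 6C day 16, and it stood at 6.27 after withdrawal. Its 3 high Dox arrays therefore exceeded both iPS arrays, and the other Dox arrays did not stand apart from the untreated ones.

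The D-type cyclins, partners of Cdk4 and Cdk6, were not called on Dox (adjusted p = 0.35 to 0.39), and Ccnd1 and Ccnd2 were low in primary iPS cells. Ccnd2 stood at 13.07, 13.50 and 13.62 untreated, 12.45 to 13.42 on Dox (median 13.01), 12.24 and 9.83 in iPS cells and 13.74 after withdrawal. The secondary iPS array lay 2.41 above the primary one, which was the largest gap between the iPS arrays among the 36 genes. The difference from untreated cells, -2.36 (SE 0.70, adjusted p = 0.090), was not called, and was called at -3.57 without the secondary iPS array (adjusted p = 0.031, with 0.031 to 0.22 over its alternatives). Ccnd1 stood at 11.87, 11.45 and 12.13 untreated, 11.79 to 12.49 on Dox (median 12.19), 11.52 and 10.05 in iPS cells and 11.99 after withdrawal. For both cyclins the iPS arrays lay below all 7 Dox arrays, as for 2024 of the 23332 clusters. For Ccnd2 they lay below the untreated arrays too, as for 5150 clusters. Among the 36 genes only these cyclins did so, which is not more frequent than among all clusters. Ccnd3 stood at 8.98, 8.90 and 9.45 untreated, 9.08 to 9.87 on Dox (median 9.50), 10.05 and 10.13 in iPS cells and 8.92 after withdrawal. Ccnd3 was thus above all Dox arrays in iPS cells, opposite to Ccnd1 and Ccnd2, but its difference of 0.98 from untreated cells was not called (adjusted p = 0.083).

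The measured transcription factors were at the ends of the range. Mybl2 stood at 6.58, 7.07 and 7.15 untreated, 8.51 to 10.49 on Dox (median 9.68), 11.76 and 12.15 in iPS cells and 6.16 after withdrawal. Its range of 5.98 over the 13 arrays was the widest of the 36, and its differences of 5.02 in iPS cells (SE 0.30, adjusted p = 0.0028) and 2.70 on Dox (SE 0.46, adjusted p = 0.020) were the largest of the 36 in both comparisons. E2f1 had the narrowest range, 0.97. E2f1 stood at 8.27, 8.40 and 8.71 untreated, 8.13 to 9.10 on Dox (median 8.46), 8.62 and 8.85 in iPS cells and 8.45 after withdrawal. The groups overlapped throughout, and the Dox difference of 0.05 turned to -0.09 after quantile normalization. Over the same arrays, the 5 replication genes with E2F words had ranges of 3.08 to 4.49. Such ranges were not particular to them. Genes with a window but no E2F word had narrow ranges, as Ccnd3 (1.23), or wide ones, as Mcm2 (3.50) and Ttk (4.54).

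Of the genes that mark cells from S phase to mitosis, Top2a was called in both comparisons. Top2a, the topoisomerase that separates the copied DNA strands, stood at 9.24, 10.36 and 9.85 untreated, 10.32 to 11.50 on Dox (median 11.14), 12.25 and 11.85 in iPS cells and 8.17 after withdrawal. It was higher by 2.23 (SE 0.39, adjusted p = 0.031) in iPS cells and by 1.26 (SE 0.29, adjusted p = 0.049) on Dox. Ccna2 (cyclin A2), active from S phase into early mitosis, stood at 9.53, 10.77 and 9.81 untreated, 10.62 to 11.47 on Dox (median 11.33), 11.56 and 11.92 in iPS cells and 8.68 after withdrawal. It was called on Dox (1.20, SE 0.27, adjusted p = 0.048), although 6C day 5 lay below 6C day 0, and not called in iPS cells (1.70, adjusted p = 0.062). Mki67, which coats mitotic chromosomes and is the usual stain for cycling cells, stood at 7.49, 8.40 and 7.95 untreated, 8.38 to 9.69 on Dox (median 9.19), 8.40 and 9.67 in iPS cells and 5.88 after withdrawal. Its iPS arrays differed by 1.27, and the secondary one was level with untreated 6C cells. Mki67 was called in neither comparison (adjusted p = 0.21 and 0.069).

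Among the mitosis genes, the checkpoint kinases Ttk and Bub1 had the largest iPS differences. Ttk (Mps1), the kinase that starts the checkpoint, stood at 7.02, 8.00 and 7.84 untreated, 8.25 to 9.51 on Dox (median 9.12), 10.56 and 10.07 in iPS cells and 6.01 after withdrawal. Ttk was higher in iPS cells by 2.69 (SE 0.38, adjusted p = 0.020) and on Dox by 1.45 (SE 0.30, adjusted p = 0.036), with no overlap between the groups. Bub1, a checkpoint kinase at the kinetochore, stood at 7.35, 8.63 and 8.56 untreated, 8.63 to 10.21 on Dox (median 9.76), 10.95 and 10.76 in iPS cells and 6.61 after withdrawal. Bub1 was higher in iPS cells by 2.68 (SE 0.45, adjusted p = 0.028), and its Dox difference of 1.46 was not called (adjusted p = 0.067), with 6C day 5 level with 6C day 0. Bub1b (BubR1) stood at 8.11, 9.54 and 8.85 untreated, 10.13 to 11.21 on Dox (median 10.67), 11.38 and 11.13 in iPS cells and 7.53 after withdrawal. It was higher on Dox by 1.87 (SE 0.32, adjusted p = 0.020), and primary iPS cells lay within the range of the Dox arrays. Cdc20, the activator of the anaphase-promoting complex that the checkpoint holds back, was higher by 2.28 in iPS cells and by 1.60 on Dox.

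Of the spindle and kinetochore genes, Kif11, Nusap1 and Cenpa were called in both comparisons and Cenpe and Kif20a in neither. Kif11 (Eg5), the motor that keeps the spindle bipolar and whose CHR word is shown above, stood at 8.12, 9.02 and 8.59 untreated, 9.43 to 10.60 on Dox (median 10.35), 10.85 and 11.19 in iPS cells and 6.88 after withdrawal. It was higher by 2.45 (SE 0.34, adjusted p = 0.020) in iPS cells and by 1.61 (SE 0.29, adjusted p = 0.024) on Dox. Nusap1, a microtubule-binding protein of the spindle, stood at 7.24, 7.15 and 7.39 untreated, 8.56 to 9.92 on Dox (median 9.59), 9.65 and 9.38 in iPS cells and 5.94 after withdrawal. Nusap1 had the largest Dox difference of the mitosis genes, 2.22 (SE 0.29, adjusted p = 0.0085), and its iPS arrays lay within the Dox range. Cenpa, the centromeric histone H3 variant, was higher by 1.81 in iPS cells and by 1.51 on Dox. Cenpe, a kinetochore motor, and Kif20a, a motor of the central spindle, differed by 1.50 and 1.69 in iPS cells (adjusted p = 0.098 and 0.074).

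The kinases that drive mitosis differed in their calls. Cdk1, the kinase of mitotic entry, stood at 9.09, 9.74 and 9.56 untreated and 10.72 and 11.14 in iPS cells, with a Dox range of 10.15 to 10.88. Cdk1 was higher by 1.47 (adjusted p = 0.044) and 1.02 (adjusted p = 0.033), its partner Ccnb2 (cyclin B2) by 2.02 and 1.19, and its activating phosphatase Cdc25c by 1.87 and 1.54, all called. Aurkb, the kinase of the chromosomal passenger complex, stood at 8.06, 9.16 and 8.52 untreated, 9.66 to 10.51 on Dox (median 10.43), 10.94 and 10.40 in iPS cells and 7.48 after withdrawal. It was higher by 2.09 (SE 0.40, adjusted p = 0.036) in iPS cells and by 1.68 (SE 0.26, adjusted p = 0.015) on Dox. Birc5 (survivin), of the same complex, Aurka, the centrosomal kinase, and Plk1 were called in neither comparison, with iPS differences of 1.69, 1.88 and 1.68 (adjusted p = 0.077, 0.11 and 0.096). Their untreated arrays were far apart, with Aurka at 8.50 in parental cells and 10.56 at 6C day 0. In all, 14 of the 36 genes were over 2-fold higher in untreated 6C cells than in parental cells, 10 of them mitosis genes, against 3.75% of all clusters. These arrays are of runs 1 and 2.

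The medians of the listed replication and mitosis genes lay close together on Dox and further apart in iPS cells. The median difference from untreated cells was 1.17 for replication and 1.45 for mitosis genes at 6C day 2, 1.86 and 1.90 at 6C day 16, and 1.83 for both groups at 1B day 5. In the 7 Dox arrays, the mitosis median minus the replication median ran from -0.0017 to 0.28. In the secondary and primary iPS arrays it was -0.66 and -0.55, with medians of 2.63 and 2.46 for replication and 1.96 and 1.91 for mitosis genes. The gap was smaller in the further genes of both pathways described at the end, whose median differences were 2.11 for replication and 1.92 for mitosis genes in iPS against untreated cells and 1.19 and 1.26 on Dox. These are descriptions, with no test between the groups.

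The further step was compared directly, with the 2 iPS arrays against the 7 Dox arrays, in a comparison added after the data were seen. It shares arrays with both comparisons above. By the same limma rule, 5 of the 36 genes were higher and 0 lower, where 1.97% of all clusters were higher and 2.06% lower. They were Mcm2 (1.39, SE 0.27, adjusted p = 0.021), Mcm3 (1.25, SE 0.28, adjusted p = 0.037), Mcm5 (1.46, SE 0.28, adjusted p = 0.021), Ccne1 (1.33, SE 0.30, adjusted p = 0.038) and Mybl2 (2.32, SE 0.55, adjusted p = 0.047), and 0 of the 16 mitosis genes. Of the 16 mitosis genes, 6 had an unadjusted limma p under 0.05, against 19.5% of all clusters. Kif20a, at 0.98, passed the threshold (limma adjusted p = 0.039) but not the 2-fold limit. The median difference was 1.23 for replication and 0.50 for mitosis genes, and 0.88 and 0.61 for the further genes of both pathways. Both iPS arrays lay above all Dox arrays for 9 of 10 replication and 7 of 16 mitosis genes, and for 21 of the 36 in all, against 9.37% of clusters. Leaving out either iPS array left 0 higher calls, and leaving out 6C day 2 or day 8 left 3 and 6C day 5 or day 11 left 2. Without the secondary iPS array, 2 genes were called lower instead, Ccnd1 (-2.13) and Ccnd2 (-3.19). In run 2, primary iPS cells lay above the mean of the Dox arrays by a median of 1.18 for replication and 0.59 for mitosis genes.

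**Figure D2:**
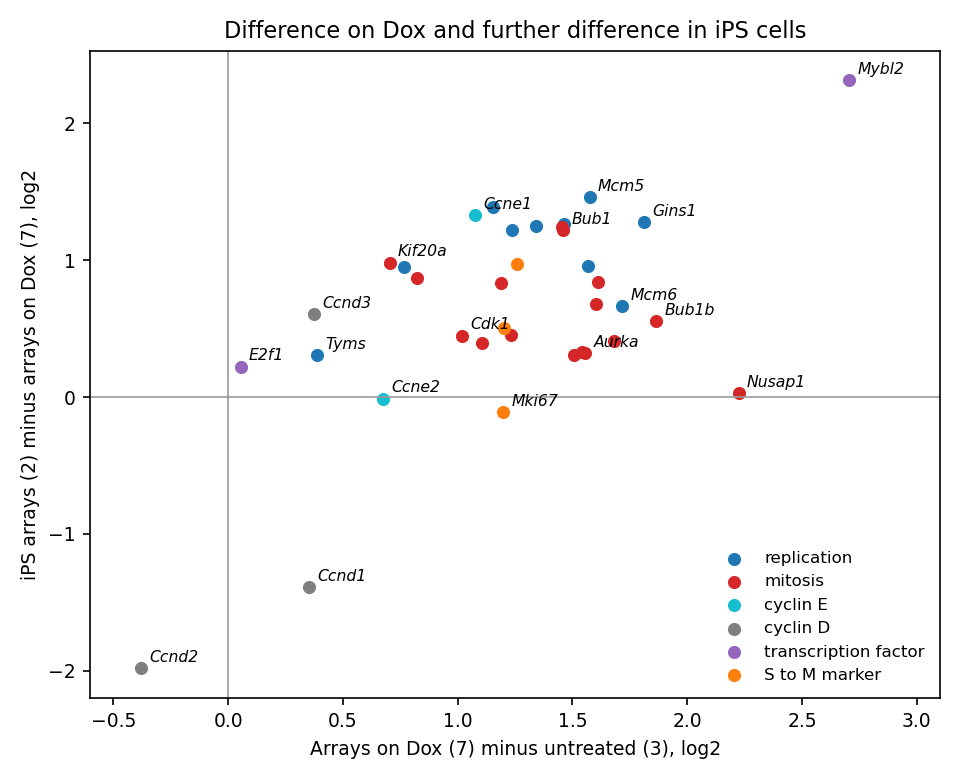
Each point is one of the 36 genes, coloured by role, with its log2 difference between the 7 arrays on Dox and the 3 untreated arrays on the x axis and between the 2 iPS arrays and the 7 arrays on Dox on the y axis. Both axes share the Dox arrays. Replication genes lie mostly above mitosis genes at like x, with Nusap1 at 2.22 and 0.03, Mybl2 at 2.70 and 2.32, and Ccnd1 and Ccnd2 at the bottom.

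In line 6C the levels did not follow the days evenly. At 6C day 2, 35 of the 36 lay above day 0 and 10 over 2-fold above, against 66.5% and 11.9% of all clusters, with a median difference of 0.84 for the genes and 0.25 for all clusters. Cdk1 reached 10.88 at day 2, its highest value on Dox, and Ccne2, Birc5, Cenpe and Kif20a also peaked there among the Dox arrays. At day 5, 32 of the 36 lay below day 2, where 50.3% of all clusters did, and the median change was -0.46. All 10 replication, 16 mitosis and 3 S to M genes were among the 32. Day 5 of 6C was the lowest of the 7 Dox arrays for 25 of the 36 genes. By day 16, 32 of 36 were above day 5 and 16 over 2-fold above, against 51.2% and 8.81% of all clusters. Day 16 was the highest Dox array for 12. How often day 5 was lowest or day 16 highest was not counted over all clusters. From day 16 to day 21, 28 of 36 were lower (61.5% of all clusters), with a median change of -0.25 against -0.13 for all clusters. Days 0 and 21 are of run 1, and days 2, 5 and 16 of run 2. In the first and last of these steps, day and run therefore cannot be told apart. Macrophage markers (8 of 9 measured) had their highest medians at 6C day 5, 8 and 11, with 7.67, 8.35 and 7.25 against 5.70 at day 2 and 5.93 at day 16. Their part in the day 5 levels was not tested.

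**Figure D3:**
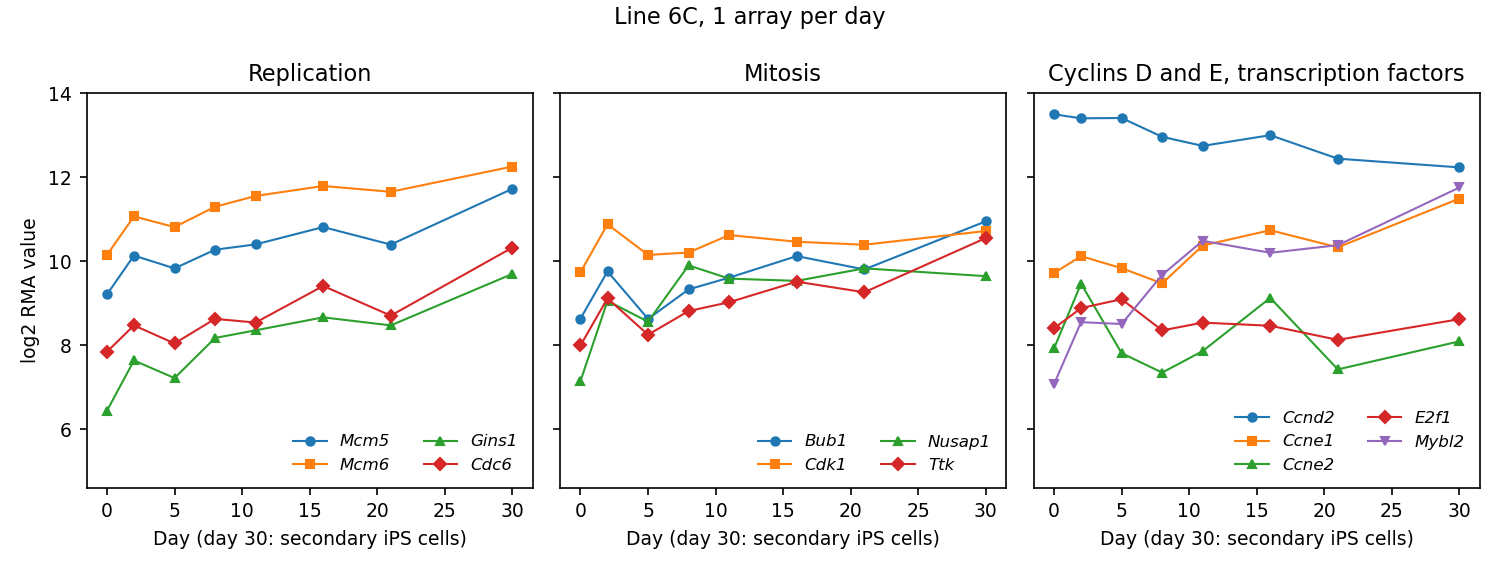
Log2 RMA value (y axis) against day (x axis) in line 6C, 1 array per day, with the secondary iPS cells at day 30, for 4 replication genes (left), 4 mitosis genes (middle) and 5 cyclins and transcription factors (right). Values at day 2 exceed those at day 5 for all 8 replication and mitosis genes shown, Mybl2 goes from 7.07 to 11.76 and Ccnd2 from 13.50 to 12.24.

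Over the whole 6C course, a limma F test of a cubic curve of day over the 8 arrays called 2 of the 36 genes, both higher at day 30, where 3.87% of all clusters were so called. Mybl2 had a fitted change of 4.55 (adjusted p = 0.018) and Gins1 of 3.07 (adjusted p = 0.038). Both fitted curves passed 2-fold at day 5. In all, 20 of the 36 had an unadjusted p under 0.05, against 24.6% of all clusters. The count was 13 where clusters low in most arrays were left out before adjustment. It was 0 without 6C day 0 or without the iPS array, and 1 without any of the other 6 arrays.

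The lines differed in how far the genes had moved after 5 days of Dox. In 1B, 29 of the 36 were over 2-fold above day 0, against 9.49% of all clusters, with a median difference of 1.61. In 6C, 3 of the 36 were (Mybl2, Nusap1 and Ccnd1), against 14.6% of all clusters, with a median of 0.33. Over all clusters the median was 0.20 in 6C and -0.01 in 1B, and after quantile normalization the 6C median of the 36 genes was -0.11. The 6C arrays of day 0 and day 5 are of runs 1 and 2, so day and run cannot be told apart in their difference, while both 1B arrays are of run 3. Mcm7 went from 9.45 to 11.71 in 1B and from 9.87 to 10.44 in 6C. Gins1 went from 6.75 to 9.07 in 1B and from 6.44 to 7.22 in 6C. Nusap1 was among the genes that moved in both lines, from 7.39 to 9.92 and from 7.15 to 8.56.

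At day 5 itself, 1B exceeded 6C for 32 of 36 genes and 13 over 2-fold, against 48.8% and 11.3% of all clusters, and the other 4 were Ccnd1, Ccnd2, Ccnd3 and E2f1. The order was not the same at day 0, where 1B lay below 6C for 27 of 36, against 36.1% of all clusters. Ccnd1, Ccnd3 and E2f1 were higher at day 5 than at day 0 in 6C, by 1.04, 0.97 and 0.69, and lower in 1B, by values of -0.19, -0.37 and -0.56. With both lines in one limma fit and line as a block, 0 members and 0% of all clusters were called at day 5. At an unadjusted p under 0.05 there were 1770 clusters (7.59%) and 4 members (Mybl2, Nusap1, Gins1 and Cdc20), and the difference between the lines itself has no test with 1 array each. The lines also differed in other ways at day 5. The fibroblast marker median was 12.96 in 6C and 7.53 in 1B, and the macrophage marker median 7.67 and 4.86. Keratinocyte markers had medians of 6.89 and 7.43, and pluripotency markers of 6.17 and 5.39. Among the latter, Nanog went the other way, at 7.75 in 6C and 10.82 in 1B, as did Esrrb by little (4.97 and 5.16). The part of these differences in the division genes was not tested.

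**Figure D4:**
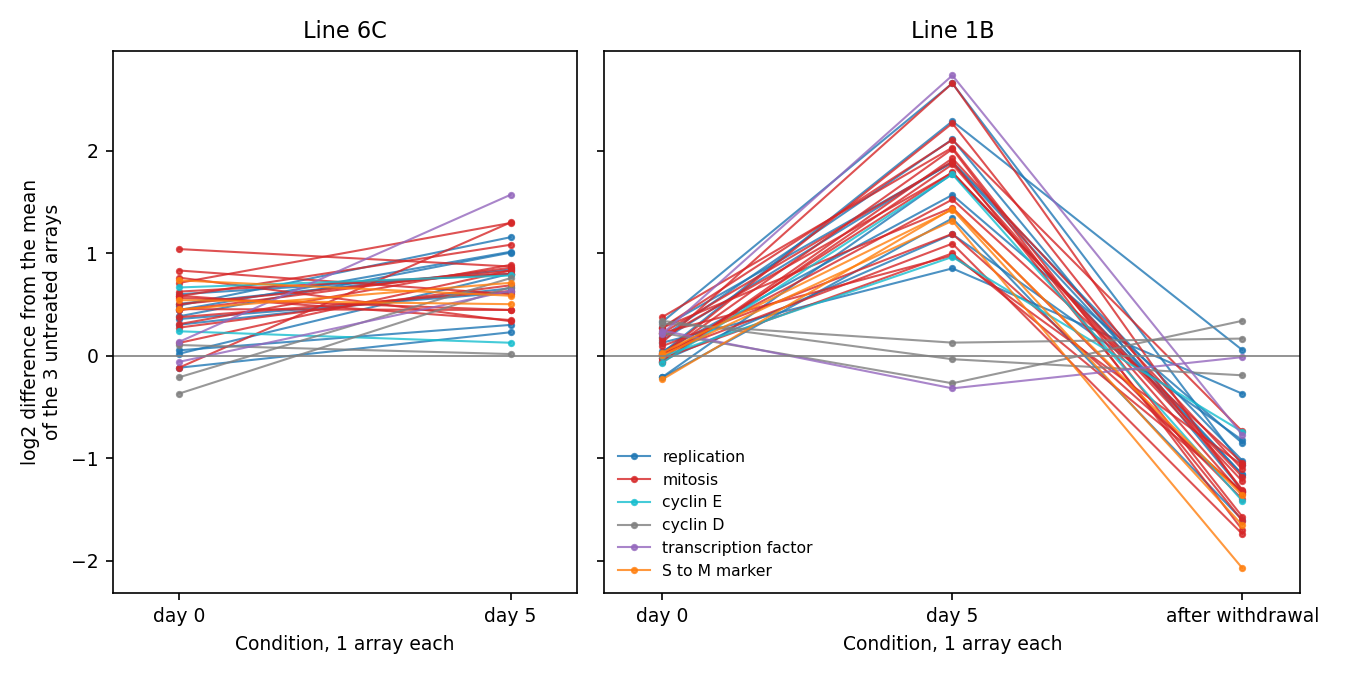
Log2 difference from the mean of the 3 untreated arrays (y axis) for each of the 36 genes, as lines coloured by role, at day 0 and day 5 in 6C (left) and at day 0, day 5 and after withdrawal in 1B (right), 1 array each. In 1B 29 genes are over 2-fold above day 0 at day 5 and 25 are over 2-fold below it after withdrawal, while in 6C 3 genes (Mybl2, Nusap1 and Ccnd1) are over 2-fold above day 0.

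Withdrawal of Dox from 1B was followed by the lowest levels in the series. Against 1B day 5, 32 of the 36 were over 2-fold lower, where 11.8% of all clusters were, with a median change of -2.92. The 4 exceptions were again the D-type cyclins and E2f1. The levels did not stop at those of untreated 1B cells: 34 of 36 lay below day 0 (51.8% of all clusters) and 25 over 2-fold below (7.41% of all clusters). These 25 included all 16 mitosis genes and 5 of 10 replication genes. The withdrawn array was the lowest of the 13 for 30 of the 36 genes, which was not counted over all clusters. Mki67 stood at 5.88, against 7.95 in 1B day 0 and 7.49 in parental cells. Bub1 stood at 6.61, against 8.56 and 7.35, and Ttk at 6.01, against 7.84 and 7.02. Against the parental array, 8 of 36 were over 2-fold lower (10.1% of all clusters), Mki67 by -1.61 and Kif11 by -1.24. This is a single array, labelled day 10, with no untreated 1B array of that day. Fibroblast markers, at a median of 11.07, had returned close to the 1B day 0 median of 11.48. Of these markers, Thy1 stayed furthest below day 0, at 9.24 against 11.25.

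Other genes of the same pathways, listed from general knowledge, were counted by the same limma rule. Of 40 further replication genes, 36 were measured, 31 were higher in iPS cells than in untreated cells, 19 were higher on Dox than in untreated cells and 7 were higher in iPS cells than on Dox. Of 50 further mitosis genes, 43 were measured, and 25, 22 and 1 were higher. Of all clusters, 5.44%, 2.31% and 1.97% were higher in these comparisons. The 1 call of 43 mitosis genes thus lies near the share of all clusters. None of the further replication or mitosis genes was lower, where 3.32%, 0.159% and 2.06% of all clusters were. The median difference in iPS cells was 2.11 and 1.92, where it was 2.54 and 1.95 for the listed replication and mitosis genes. Rfc5, a subunit of the clamp loader, stood at 7.65, 8.26 and 8.41 untreated and at 11.41 and 11.77 in iPS cells, with a difference of 3.48 (adjusted p = 0.0082). Mcm10 and Orc1, which act at origins, followed with 3.30 and 3.21. On Dox the largest differences were again those of Rfc5 (2.10) and Mcm10 (2.03), followed by Gmnn (1.76), which encodes the licensing inhibitor geminin. Among the mitosis genes, Fbxo5, an inhibitor of the anaphase-promoting complex, was higher in iPS cells by 2.98, Cdca5 (sororin, which protects cohesion) by 2.94 and Melk by 2.71. On Dox the largest were Ncaph (1.99), a condensin subunit, Spc24 (1.84), of the Ndc80 kinetochore complex, and Nek2 (1.78).

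Of 20 G1 kinases, pocket proteins and E2F partners, 18 were measured. Higher calls numbered 6 in iPS cells and 3 on Dox, against 5.44% and 2.31% of all clusters. Lower calls numbered 0 in either, against 3.32% and 0.159% of all clusters, which says little for 18 genes. In iPS cells the largest were Cdc25a (2.29), the phosphatase that activates Cdk2, Lin9 (1.86), a MuvB subunit, and E2f8 (1.69). On Dox they were Rb1 (1.84, SE 0.34, adjusted p = 0.026), Lin9 (1.57) and Skp2 (1.13), a subunit of the ligase that degrades p27. Rb1 encodes the retinoblastoma protein that holds E2F factors back. Its level was 8.76, 8.18 and 9.60 untreated and 9.76 at 6C day 2, and it ran from 10.58 to 11.26 in the other Dox arrays. Rb1 stood at 8.09 and 9.12 in iPS cells and at 10.76 after withdrawal, so it was high on Dox, low in iPS cells and, unlike the division genes, as high in the withdrawn array as at 1B day 5. It was lower in iPS cells than on Dox by a difference of -2.08 (SE 0.38, adjusted p = 0.016).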

How the data were processed

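The log2 values analysed are those the authors deposited, 1 per cluster and array. Per the submitters' processing notes they were made with RMA in Affymetrix Expression Console, on the mm9 build, with no version given. RMA corrects background, quantile-normalizes arrays and summarises probes, so low values are compressed. The log base was taken as 2 from the value range, 0.46 to 14.3. Symbols came from the platform annotation.

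Using limma 3.58.1 in R 4.3.3 (lmFit, eBayes, two-sided), iPS cells and Dox-treated arrays were each compared with untreated arrays, day 5 with day 0 with line as a block, and the 6C course by an F test of a degree 3 polynomial of day. Fits ran on all 23332 clusters, and a call needs an adjusted p under 0.05 and 2-fold. Single arrays were compared without a test. The fits were tested on simulated data with independent noise of equal spread and no run effect. That test covers the code and not the spread or the runs of these arrays. Precision is limited by the number of arrays. Every member is named. Some also have each untreated, iPS and withdrawn value and the range and median on Dox. These include the 3 largest iPS differences per role, up to 3 more called per role, and the widest and narrowest ranges. The members, lists and tests were chosen with earlier results of these data known. The alternatives comprised rescaled arrays, removal of low clusters, a variance trend, blocks, curves, baselines and the omission of single arrays.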

Additional observations from a re-analysis of the deposited data

Results flagged for a closer look

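Among the 7 arrays on Dox, 6C day 5 was far below the others for 3 genes, by the gap to the nearest array as a share of the range (Dixon's critical value). Ccna2 stood at 10.62, Cdc25c at 7.97 and Plk1 at 10.12. Such a test marks about 1 in 20 groups by chance, and 36 genes were tested.

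For 12 of the 36 genes, the change from day 0 to day 5 had opposite signs in the lines. The difference was not tested, because each line has 1 array per day, and 0 of the 12 moved over 2-fold in both lines. For 9 genes 1B was up and 6C down, and the 1B change minus the 6C change was 1.95 for Ccne2, 1.81 for Ccna2 and 1.43 for Top2a. Among these mitosis genes it was 1.98 for Aurka, 1.74 for Plk1, 1.66 for Bub1, 1.45 for Birc5, 1.29 for Cenpe and 0.99 for Kif20a. For the G1 regulators Ccnd1, Ccnd3 and E2f1 the signs were the other way round, with -1.23, -1.34 and -1.26. The 6C changes of the 9 genes were small, from -0.43 (Birc5) to -0.01 (Bub1).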

How the results depend on the processing

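Every comparison rests on 1 array per condition, and counts of calls moved more than the differences themselves. The shares of all clusters given above belong to the main fits and not to the alternatives, whose counts are of the members only. Without 1 array, the members called higher in iPS against untreated cells numbered 1 to 12 and those called lower 0 to 1, in the 6C course 0 to 1, on Dox 1 to 21, and in iPS cells against the Dox arrays 0 to 7 higher and 0 to 2 lower. The filter on low values gave 1 lower call in iPS against untreated cells (Ccnd2). In the 6C course, calls numbered 6 with quantile normalization, 4 with centred arrays, 13 with the filter, 7 with the variance trend (plus 1 lower), 5 with degree 2 and 4 with run as a random block. On Dox they numbered 7 with quantile normalization, 9 with centred arrays, 12 with 6C alone and 1 with run as a fixed block. Against the Dox arrays, quantile normalization, centring and the trend each gave 1 lower call (Ccnd1) and the filter 2 (Ccnd1 and Ccnd2). At day 5, leaving out the pairing by line (no replicate block) gave 0 calls, as with the block, and no value could be had without 1 array.

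E2f1 changed sign in the 6C course with quantile normalization (-0.16), centring (-0.081) and degree 2 (-0.28), on Dox with quantile normalization (-0.088) and the run block (-0.023), and at day 5 with quantile normalization (-0.12) and centring (-0.032). Without 1 array it ran from -0.37 to 0.14 in the course and from -0.043 to 0.18 on Dox. Other course values that changed sign without 1 array ran from -0.13 to 0.54 (Tyms), -1.12 to 0.16 (Ccne2), -0.89 to 0.20 (Ccnd1), -1.14 to 0.91 (Mki67), -0.0042 to 1.00 (Cdk1), -0.12 to 1.11 (Birc5) and -0.22 to 1.31 (Kif20a). In iPS cells against the Dox arrays, Ccne2 was 0.15 with quantile normalization, 0.094 with centring and -0.26 to 0.24 without 1 array, Mki67 -0.75 to 0.53 and Nusap1 -0.12 to 0.16.

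In 6C at day 5, the members over 2-fold above day 0 numbered 0 with quantile normalization and 7 against the mean of the untreated arrays. The mitosis median minus the replication median was 0.21 on Dox and -0.47 in iPS cells against the parental array, and -0.35 in iPS cells as a difference of means. The cause of these changes was not tested. The 1B counts over 2-fold stayed within 1.5 times under the scalings run.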
